A study of Homo sapiens with 8 samples.

Results

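FLT3 and the receptors for the myeloid colony-stimulating factors, together with the STAT5 proteins they activate and well-known STAT5 target genes, were followed in MOLM-13 cells, a human acute myeloid leukemia (AML) cell line, with and without knockdown of PTBP1. The members were 10 genes chosen by name, FLT3, CSF1R, CSF3R, CSF2RB, CSF2RA, IL3RA, STAT5A, STAT5B, PIM1 and SOCS2, and every row of the deposited transcript counts that belongs to one of them in GENCODE version 44 was used. They are 10 of the 16474 genes with a count in at least 1 library. In 4 biological replicates the cells carried a doxycycline (dox)-inducible shRNA against PTBP1 (shPTBP1, PTBP1 KD), and in 4 others a scrambled shRNA (shSCR). All 8 were treated with dox for 9 days, so that dox, the lentiviral vector and its mCherry and ΔLNGFR reporters are shared by both groups. The study describes 1 shRNA of each kind, and loss of PTBP1 therefore cannot be told apart from other effects of that shRNA.

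These receptors carry signals that tell myeloid progenitors to survive, divide and mature. FLT3, CSF1R and the related receptor KIT are receptor tyrosine kinases, whereas CSF3R, CSF2RA, CSF2RB and IL3RA have no kinase of their own and work through JAK kinases. Both kinds activate STAT5 and the RAS-MAPK and PI3K pathways, and STAT5 switches on the survival kinase gene PIM1 and the feedback inhibitor genes SOCS2 and CISH. FLT3 is often mutated in AML, MOLM-13 included, and the counts used here do not separate its alleles. PTBP1 is an RNA-binding protein that controls splicing and binds pyrimidine-rich RNA, often at the letters UCUU.

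RNA was read as cDNA on a nanopore instrument. The libraries held from 1528449 to 1613342 transcript counts and from 12322 to 12589 detected genes. Levels are given as normalized CPM, which is counts per 1000000 after edgeR's TMM scaling, with no correction for transcript length, so levels of different genes are not compared here. PTBP1 itself had 10 to 23 counts in the shPTBP1 libraries and 64 to 90 in the shSCR libraries (log2 fold change -2.26, SE 0.22, adjusted p = 7.18e-05 by edgeR). Of 13 markers of myeloid blasts and monocytes, 11 were detected in every library, while SPI1 and CD14 had at most 1 count in any library. Whether reads of SPI1 or CD14 were lost when they were assigned to transcripts was not tested. The summed levels of the 13 were 5729 to 6529 normalized CPM after PTBP1 KD and 5671 to 5863 in shSCR. AZU1 alone had 3357 to 4192 and 3584 to 3729, so these sums mostly follow that gene. The markers of lymphoid, erythroid, megakaryocytic and epithelial cells held at most 4 counts each in any library. In RNA from a whole culture, fewer cells of a type and less RNA per cell cannot be told apart.

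Sequences at 3 sites of the members are shown for the results below. The first is the 80 bases before the fourth exon of CSF3R-203, the main coding isoform of the G-CSF receptor gene, because that exon begins further upstream in the isoform CSF3R-204 and these bases are then kept in the RNA. The second is the 80 bases before an exon of 132 bases (chr13:28025284-28025415, minus strand) that FLT3-202 has and FLT3-201 lacks. Both were read from hg38 on the strand of the gene, and capitals mark TCTT, the DNA form of the PTBP1 motif, searched on that strand only. The third lies in the first intron of CSF1R-201, the coding isoform of the M-CSF receptor gene, just before its second exon, where shorter CSF1R isoforms begin (RefSeq, GRCh38.p14). There capitals mark TGTGGT, a motif of RUNX1, searched on both strands.
CSF3R (chr1:36475674-36475753, minus strand): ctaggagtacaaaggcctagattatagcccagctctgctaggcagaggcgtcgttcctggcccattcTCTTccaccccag
FLT3 (chr13:28025416-28025495, minus strand): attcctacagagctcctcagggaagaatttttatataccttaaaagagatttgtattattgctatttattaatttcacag
CSF1R (chr5:150086608-150086804, minus strand): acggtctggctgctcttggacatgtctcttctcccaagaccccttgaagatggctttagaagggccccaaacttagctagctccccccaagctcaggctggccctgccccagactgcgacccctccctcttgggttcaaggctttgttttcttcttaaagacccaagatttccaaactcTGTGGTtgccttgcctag
The CSF3R window held 1 TCTT, as did or exceeded 60.2% of the 85603 windows of this length before annotated exons of the genes tested. Its pyrimidine content was 55% and that of the FLT3 window, which held no TCTT, was 53.75%, beside a median of 56.25% over those windows. The CSF1R window held 1 TGTGGT, and 8.83% of 35116 RefSeq promoters held the motif in a stretch of the same length. A match describes the letters only, and binding was not measured in these libraries.

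Among the receptor tyrosine kinases, both members were lower in normalized CPM in all shPTBP1 libraries than in all shSCR libraries. For FLT3 the margin was narrow, with equal counts in replicate 3 of both groups. CSF1R, the receptor for the monocyte growth factors M-CSF and IL-34, fell to 0.493 of its shSCR summed counts, scaled to the library totals. It was the only member called by the test across genes. FLT3, the receptor for FLT3 ligand, was at 0.507 of its shSCR summed counts on the same scale, with too few reads for that test. CSF1R was 1 of the 4 members that passed the filter on low counts, and 3.19% of the 7597 genes tested were called lower. No member was called higher, as 2.36% of the genes tested were. Of the 4 members tested, CSF1R alone was lower in all shPTBP1 libraries than in all shSCR libraries, which 6.37% of the genes tested were, and no tested member was higher in all of them, which 6.32% were. Both receptors were read at low counts in either group.

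CSF1R (ENSG00000182578, chromosome 5, 150053291-150113372) had 15, 11, 10 and 9 counts in shPTBP1 replicates 1 to 4 and 21, 28, 21 and 20 in shSCR replicates 1 to 4. In normalized CPM these were 9.49, 7.27, 6.58 and 5.76 against 12.9, 17.8, 14.0 and 12.8, with means of 7.28 ± 1.599 and 14.4 ± 2.35 (SD, n = 4). The lowest shSCR library lay above the highest shPTBP1 library, so the groups did not overlap. The log2 fold change was -0.97 (SE 0.25, edgeR quasi-likelihood test, Benjamini-Hochberg adjusted p = 0.0375). The ratio of summed counts, 45 to 90 before scaling to the library totals, had an exact 95% interval of 0.337 to 0.713, which covers counting error only. The direction was the same without each library in turn, but the adjusted p exceeded 0.05 without 7 of the 8 (0.0576 to 0.116) and stayed under it without shPTBP1 replicate 1 (0.0358). A block for replicate number gave an adjusted p of 0.0723, testing without the filter on low counts gave 0.0639, and DESeq2 gave an unadjusted p of 0.0127 and no adjusted p at this level.

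Nearly all CSF1R counts fell on CSF1R-201, the coding isoform that begins at the far upstream exon. It took 44 of 45 counts after PTBP1 KD and 87 of 90 in shSCR. The other counts, 1 after PTBP1 KD and 3 in shSCR, fell on CSF1R-203 and CSF1R-210, which begin at the downstream start beside the sequence printed above. The counts are given per annotated transcript and do not record where each read began. Of the 11 myeloid markers detected in every library, 3 were themselves called, beside 5.54% of all genes tested, and the others were not. CD4 was lower (log2 fold change -0.47, edgeR adjusted p = 0.000597), and CD68 (0.36, adjusted p = 0.0194) and FUT4 (0.57, adjusted p = 0.0145), which makes the CD15 epitope, were higher. Their part in the CSF1R result was not tested.

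FLT3 (ENSG00000122025, chromosome 13, 28003274-28100592) had 4, 5, 6 and 3 counts after PTBP1 KD and 12, 8, 6 and 9 in shSCR. The means were 2.93 ± 0.886 and 5.56 ± 1.41 normalized CPM (SD, n = 4). The groups met at replicate 3, with 3.95 normalized CPM in shPTBP1 and 4.00 in shSCR from 6 counts each. They did not overlap by that margin alone. The exact two-sided permutation test of the group means gave an unadjusted p of 0.0286, the smallest value that 4 against 4 libraries allow. Groups that do not overlap always give this value, so the test adds nothing to the lack of overlap. Of the 9632 genes with a count in every library, 5.6% were lower in all shPTBP1 libraries than in all shSCR libraries, as FLT3 and CSF1R were among the 5 members with a count in every library. The ratio of summed counts was 18 to 35, with an exact 95% interval of 0.271 to 0.921 after scaling. When all genes with a count were tested, FLT3 differed by -0.91 on the log2 scale (SE 0.47, adjusted p = 0.434 by edgeR).

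**Figure D1:**
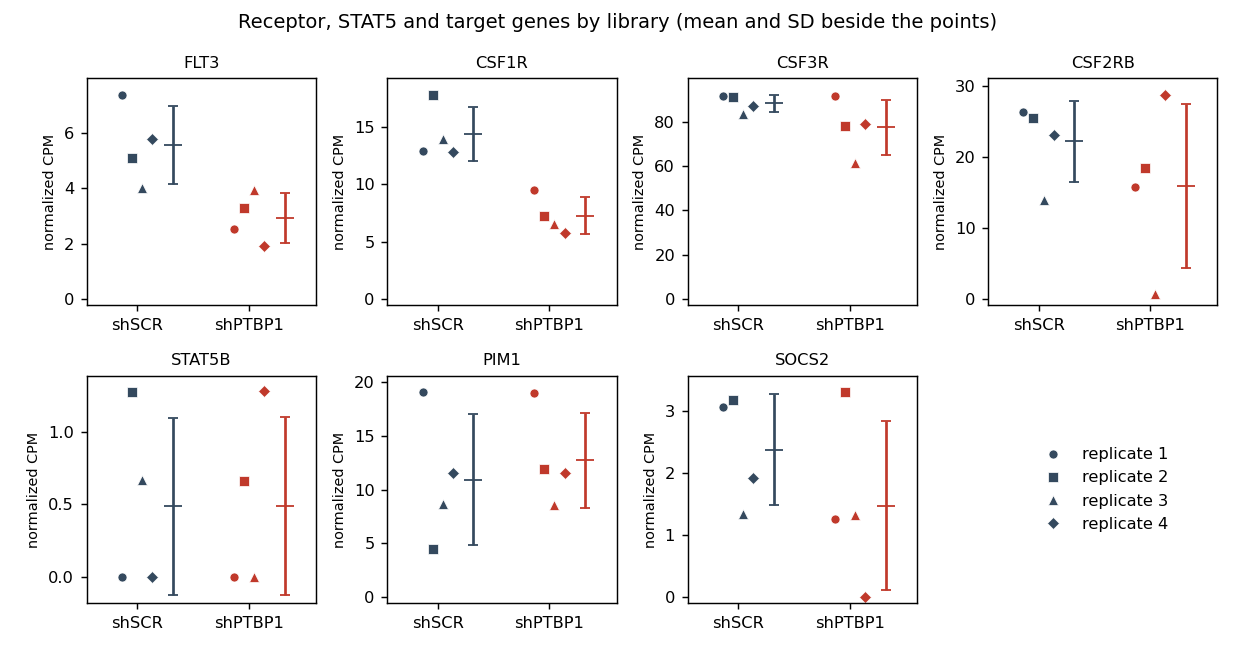
Normalized CPM (vertical axes) of the 7 members with counts in each of the 4 shSCR (dark) and 4 shPTBP1 (red) libraries, with marker shape for the replicate number and the mean and SD beside the points. CSF1R and, by a narrow margin at replicate 3, FLT3 were lower in all shPTBP1 libraries than in all shSCR libraries. CSF2RB was near 0 in shPTBP1 replicate 3, and the other members overlapped between groups.

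Among the cytokine receptor chains, none passed the test. CSF3R, the receptor for G-CSF, had the deepest counts of all members. After PTBP1 KD its summed counts, scaled to the library totals, were 0.855 of those in shSCR. CSF2RB, the beta chain that the receptors for GM-CSF, IL-3 and IL-5 share, was lower on average, but 1 library set most of that difference. The 2 alpha chains, CSF2RA for GM-CSF and IL3RA for IL-3, had no count in any library.

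CSF3R (ENSG00000119535, chromosome 1, 36466043-36483278) had 145, 118, 93 and 123 counts after PTBP1 KD and 149, 143, 125 and 136 in shSCR. Its normalized CPM was 91.7, 78.0, 61.2 and 78.8 against 91.6, 91.1, 83.4 and 87.3. Replicate 1 of shPTBP1 stood at the level of the shSCR libraries and the other shPTBP1 libraries below them all. The difference was -0.19 on the log2 scale (SE 0.11, adjusted p = 0.394 by edgeR).

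CSF2RB (ENSG00000100368, chromosome 22, 36913628-36940439) had 25, 28, 1 and 45 counts after PTBP1 KD and 43, 40, 21 and 36 in shSCR. The highest and the lowest of the 8 libraries were therefore both shPTBP1 libraries. The difference was -0.48 on the log2 scale (SE 0.47, adjusted p = 0.639 by edgeR), and without shPTBP1 replicate 3 it was -0.08 (adjusted p = 0.928). The single count of that library was assigned to CSF2RB-202, and every other CSF2RB count to CSF2RB-201. Such drops were rare: of 5310 genes with at least 20 counts in 7 or more libraries, 19 had at most 1 count in the remaining library, 4 of them in shPTBP1 replicate 3.

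CSF2RA (chromosome X, 1268800-1310381) and IL3RA (chromosome X, 1336616-1382689) lie in a region that the X and Y chromosomes share letter for letter. The annotated coding transcripts of both genes, 20 of CSF2RA and 6 of IL3RA, were aligned to hg38 with minimap2 and all received a mapping quality of 0, while those of the other 8 members all received 60. The authors kept reads with a mapping quality above 50. Of the 18 protein-coding genes annotated on both X and Y in the regions they share, 17 had no count in any library, CSF2RA and IL3RA among them. The other, CD99, a surface protein of most blood cells, had 1 count in all. The value of 0 for CSF2RA and IL3RA therefore cannot be read as a level, and whether the authors' reference held both copies was not tested.

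No isoform of CSF3R passed the test of isoform usage. CSF3R-204, annotated as a retained-intron transcript with no protein, took a larger share of the gene's counts in every shPTBP1 library than in any shSCR library. Its counts were 24, 21, 21 and 22 after PTBP1 KD and 14, 17, 18 and 10 in shSCR. These were shares of 16.6%, 17.8%, 22.6% and 17.9% against 9.40%, 11.9%, 14.4% and 7.35%, with means of 18.7% ± 2.66 and 10.8% ± 3.05 (SD, n = 4). Shares did not overlap between groups, and were higher after PTBP1 KD, for 5.47% of the isoforms tested. The change of 7.94 percentage points was under the limit of 10 set for a call, and edgeR's diffSpliceDGE gave an unadjusted p of 0.00751 and an adjusted p of 0.251. Of all 5464 isoforms tested, 1.12% were called, and of the member isoforms none was, with 2 tested. Limma's diffSplice gave an adjusted p of 0.0582, and without each library in turn the diffSpliceDGE adjusted p was 0.229 to 0.921.

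The main coding isoform, CSF3R-203, had shares of 73.8%, 69.5%, 65.6% and 70.7% after PTBP1 KD and 74.5%, 77.6%, 76.8% and 81.6% in shSCR. These shares did not overlap between groups either, which held for 10.7% of the isoforms tested, counting both directions. Its mean share differed by -7.73 percentage points (adjusted p = 1 by diffSpliceDGE). Limma's diffSplice gave an adjusted p of 0.0582, the same as for CSF3R-204. Among the coding transcripts of CSF3R alone its share was 90.3% ± 2.28 after PTBP1 KD and 90.0% ± 2.69 in shSCR (SD, n = 4), so the difference lay between coding and retained-intron transcripts. In level, CSF3R-203 was at 54.4 ± 11.3 normalized CPM after PTBP1 KD and 68.5 ± 3.28 in shSCR, and CSF3R-204 at 14.2 ± 0.638 and 9.46 ± 2.47. The first exon of CSF3R-204 has 1219 bases and ends where the fourth exon of CSF3R-203, of 297 bases, ends (chr1:36475377-36476595 and chr1:36475377-36475673). The CSF3R sequence printed above lies inside the longer exon. Its last exon stops in the intron downstream (chr1:36468748-36469257), so that the transcript holds neither the start nor the last exons of the coding isoform.

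**Figure D2:**
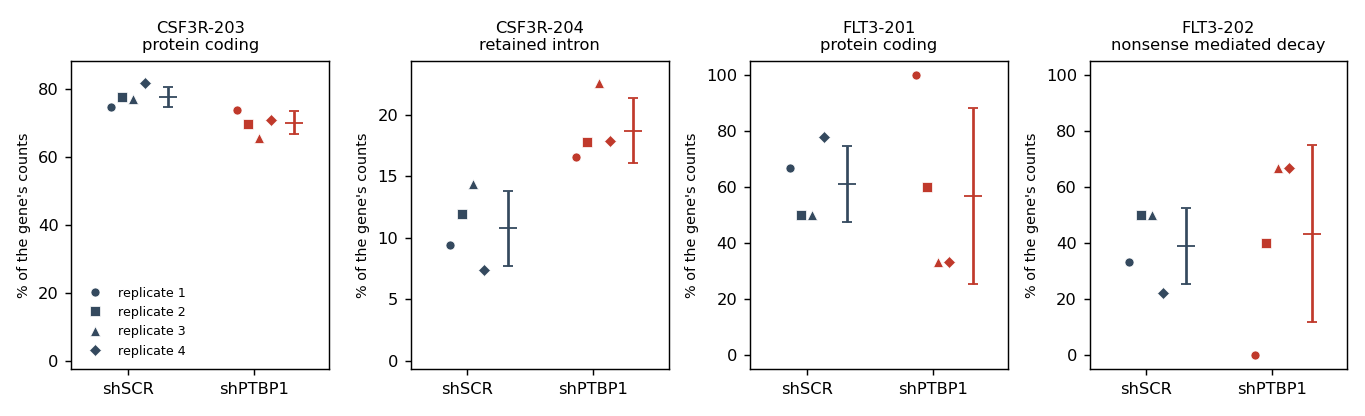
Share of a gene's counts, in percent (vertical axes), for 2 isoforms each of CSF3R and FLT3 in every shSCR (dark) and shPTBP1 (red) library, with the mean and SD beside the points. The shares of CSF3R-204 lie between 16.6% and 22.6% in shPTBP1 and between 7.35% and 14.4% in shSCR, while those of the FLT3 isoforms overlap.

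FLT3 reads were divided between the coding isoform FLT3-201 and FLT3-202, which carries the additional exon of 132 bases and is annotated as a target of nonsense-mediated decay, the pathway that destroys RNAs with an early stop codon. FLT3-201 had 4, 3, 2 and 1 counts after PTBP1 KD and 8, 4, 3 and 7 in shSCR. FLT3-202 had 0, 2, 4 and 2 counts after PTBP1 KD and 4, 4, 3 and 2 in shSCR. FLT3-202 thus held 8 of 18 counts (44.4%) after PTBP1 KD and 13 of 35 (37.1%) in shSCR, and its share by library ran from 0% to 66.7% and from 22.2% to 50%. The isoforms had too few counts for the test, and no difference in their balance was detectable at this depth.

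**Figure D3:**
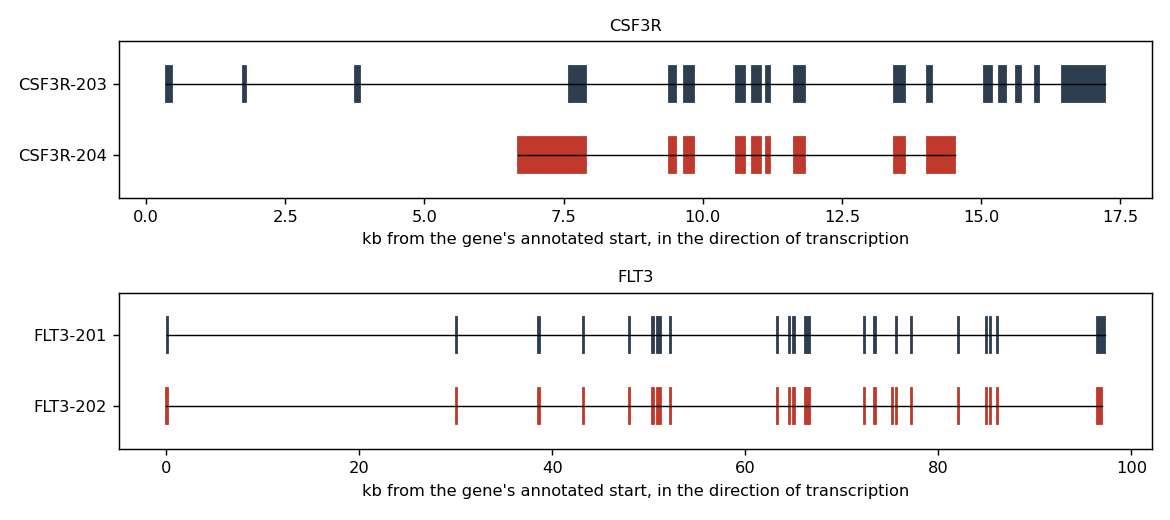
Annotated exons (boxes) and introns (lines) of CSF3R-203, CSF3R-204, FLT3-201 and FLT3-202, to scale in kb from the start of the gene in the direction of transcription. CSF3R-204 begins with an exon of 1219 bases and ends early, and FLT3-202 has 25 exons where FLT3-201 has 24.

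The STAT5 genes were barely read. STAT5A (chromosome 17, 42287547-42311943) was listed at 0 in all 8 libraries. A count of 0 allows at most 3 counts, which is 1.86 to 1.96 CPM in libraries of this size. This limit covers counting error only, and whether reads of STAT5A were lost when they were assigned to transcripts was not tested. STAT5B (chromosome 17, 42199176-42288633) had 0, 1, 0 and 2 counts after PTBP1 KD and 0, 2, 1 and 0 in shSCR, or 3 in each group. Neither level nor balance of the STAT5 genes can be compared between groups from these counts. The STAT5A and STAT5B transcripts all aligned with a mapping quality of 60 when taken whole.

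The STAT5 target genes among the members, PIM1 and SOCS2, did not differ detectably. PIM1 (ENSG00000137193, chromosome 6, 37170152-37175428), which encodes a survival kinase, had 30, 18, 13 and 18 counts after PTBP1 KD and 31, 7, 13 and 18 in shSCR. It differed by 0.21 on the log2 scale (SE 0.37, adjusted p = 0.818 by edgeR), with an exact 95% interval of 0.807 to 1.58 for the ratio of summed counts, and it was -0.04 without shPTBP1 replicate 1 or without shSCR replicate 2. SOCS2 (ENSG00000120833, chromosome 12, 93569814-93583487), a feedback inhibitor, had 2, 5, 2 and 0 counts after PTBP1 KD and 5, 5, 2 and 3 in shSCR, too few for the test. The ratio of its summed counts, 9 to 15, had an exact 95% interval of 0.228 to 1.44. Its counts were spread over the coding isoforms SOCS2-202, SOCS2-206 and SOCS2-207, with 2, 4 and 3 counts after PTBP1 KD and 0, 5 and 10 in shSCR.

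Around the members, a list of 94 genes of the same pathways was read in the same fit. Of these, 51 passed the filter, 13 had no count in any library, and the other 30 had too few counts. The test called 2 higher and 4 lower, which is 6 of 51 beside 5.54% of all genes tested, and the median log2 fold change of the 51 was -0.07, beside -0.00014 over all genes tested. The 2 genes with the strongest change were EGR1, higher, and GRB2, lower, and these were called also without each library in turn.

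EGR1, an immediate early transcription factor gene switched on by MAPK signalling (chromosome 5, 138465479-138469303), had 357, 414, 382 and 400 normalized CPM after PTBP1 KD and 137, 98.1, 109 and 149 in shSCR. All shPTBP1 libraries lay far above the shSCR libraries, with a log2 fold change of 1.65 (SE 0.11, adjusted p = 3.71e-06 by edgeR). The other 7 tested genes of the STAT5 and MAPK output group were not called. Among them MYC, a growth regulator, had 430 ± 25.7 normalized CPM after PTBP1 KD and 427 ± 23.4 in shSCR. CCND3, a D-type cyclin, had 65.3 ± 6.66 and 97.1 ± 27.2 (log2 fold change -0.57, adjusted p = 0.0717).

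GRB2, the adaptor that links activated receptors to RAS (chromosome 17, 75318076-75405709), had 135, 119, 174 and 179 normalized CPM after PTBP1 KD and 285, 485, 311 and 409 in shSCR. The groups did not overlap, with a log2 fold change of -1.29 (SE 0.17, adjusted p = 0.000597 by edgeR). Most of its counts fell on the coding isoform GRB2-202, with 195, 158, 239 and 255 of 214, 180, 265 and 280 counts after PTBP1 KD and 437, 735, 436 and 609 of 463, 761, 466 and 638 in shSCR, and its share was not called (diffSpliceDGE adjusted p = 1). The other 14 tested genes of the RAS-MAPK and PI3K group were not called. They include the RAS gene NRAS (373 ± 3.94 normalized CPM after PTBP1 KD and 353 ± 18.1 in shSCR) and PTPN11, the phosphatase SHP2 (95.2 ± 11.4 and 86.1 ± 19.0).

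**Figure D4:**
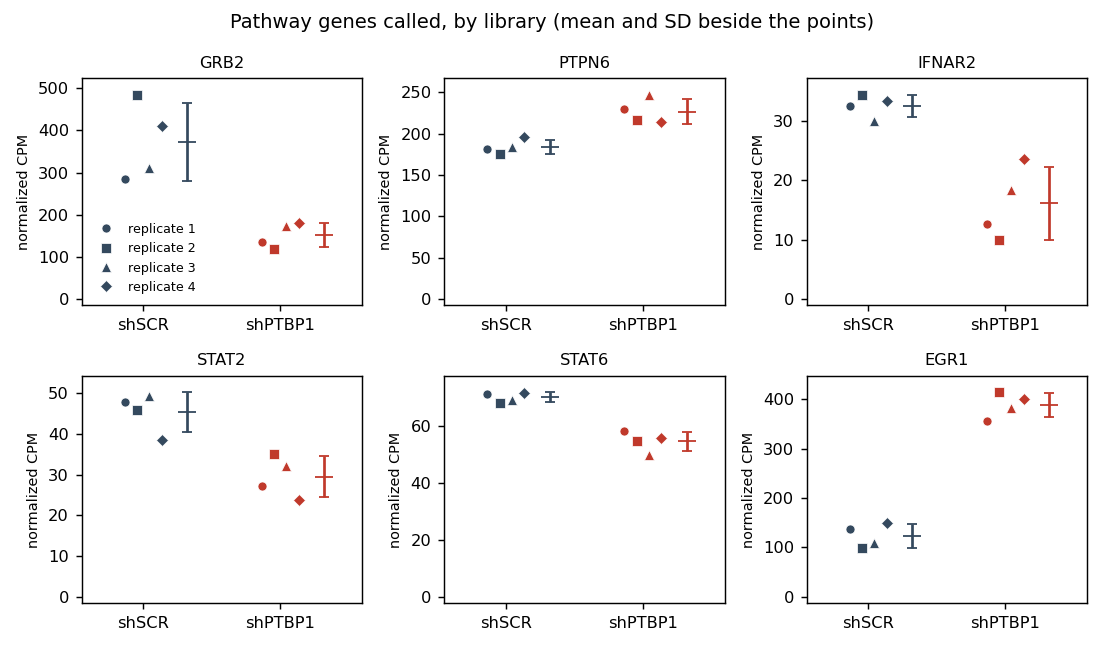
Normalized CPM (vertical axes) of the 6 pathway genes called, in each of the 4 shSCR (dark) and 4 shPTBP1 (red) libraries, with the mean and SD beside the points. EGR1 and PTPN6 were higher in all shPTBP1 libraries, and GRB2, IFNAR2, STAT2 and STAT6 were lower.

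The remaining calls lay among interferon and STAT genes and the phosphatases. IFNAR2, a chain of the type I interferon receptor (chromosome 21, 33205282-33265675), had 12.7, 9.91, 18.4 and 23.7 normalized CPM after PTBP1 KD and 32.6, 34.4, 30.0 and 33.4 in shSCR (log2 fold change -1.01, SE 0.22, edgeR adjusted p = 0.0197). STAT2, which acts downstream of that receptor (chromosome 12, 56341597-56360203), had 27.2, 35.0, 32.3 and 23.7 against 47.9, 45.8, 49.3 and 38.5 (log2 fold change -0.62, SE 0.15, adjusted p = 0.0273). STAT6, the mediator of IL-4 signals (chromosome 12, 57095408-57132139), had 58.2, 54.8, 50.03 and 55.7 against 71.3, 68.1, 69.4 and 71.9 (log2 fold change -0.36, SE 0.09, adjusted p = 0.0430). STAT6 overlaps NAB2 on the opposite strand, which had 190 counts beside 777 of STAT6, and whether the counting used strand is not given in the sources used here. PTPN6, the phosphatase SHP1 that damps cytokine receptors (chromosome 12, 6946468-6961316), had 230, 216, 247 and 214 against 181, 175, 183 and 196 (log2 fold change 0.30, SE 0.07, adjusted p = 0.0283). In these 4 genes the groups did not overlap, which held for 12.7% of the genes tested, counting both directions. Among the other pathway genes named here, levels were higher after PTBP1 KD without overlap for NRAS above and IFNGR1 and PTPN2 below. None of them was called, and 6.32% of the genes tested were higher without overlap. The calls of the 4 genes were less stable than those of EGR1 and GRB2. Without each library in turn IFNAR2 was called in 4 of 8 fits, STAT2 and PTPN6 in 2, and STAT6 in none. With DESeq2, STAT2 and STAT6 were not called (adjusted p = 0.0772 and 0.234), and with limma-trend PTPN6 was not (0.0535).

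Other tested genes of the list were not called. Of the other receptors, IFNGR1 had 291 ± 5.73 normalized CPM after PTBP1 KD and 279 ± 4.73 in shSCR, IL10RB 230 ± 19.7 and 243 ± 40.3, and IL6R 83.5 ± 10.2 and 61.4 ± 14.3 (log2 fold change 0.44, edgeR adjusted p = 0.114). Of the kinases that work beside the receptors, FES had 69.2 ± 12.2 and 81.2 ± 5.22, JAK1 15.6 ± 13.1 and 17.6 ± 15.8, and SYK 12.0 ± 2.72 and 11.3 ± 6.89 normalized CPM. The SDs of JAK1 were near its means because JAK1-202, a transcript without a defined coding region, had 32 to 48 counts in 4 libraries and none in the other 4, with 2 of each in either group. STAT3, a STAT that many cytokine receptors activate, had 79.7 ± 9.29 and 89.5 ± 15.02 normalized CPM. Of the negative regulators, the ubiquitin ligase gene CBL had 62.0 ± 9.22 and 82.6 ± 21.8, and the phosphatase gene PTPN2 102 ± 2.80 and 93.3 ± 5.13.

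**Figure D5:**
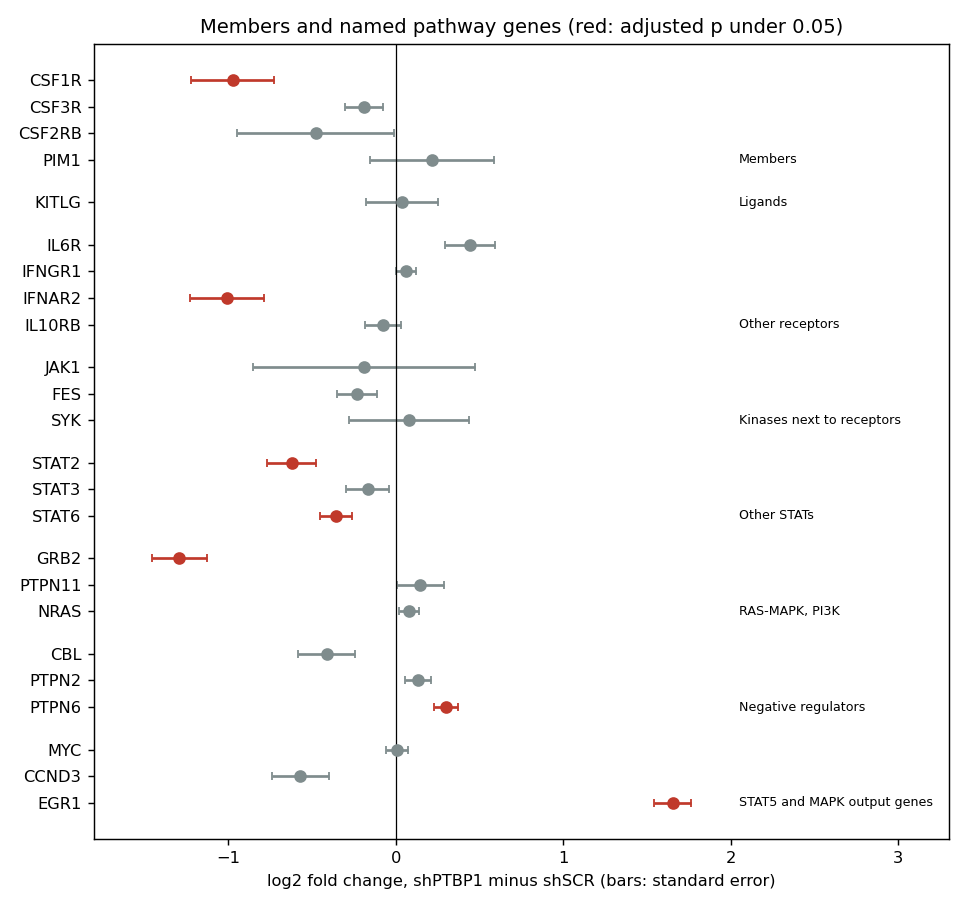
Log2 fold change, shPTBP1 minus shSCR (horizontal axis), with its standard error from edgeR, for the 4 members tested and the named pathway genes tested, grouped by role. Red marks an adjusted p under 0.05, with EGR1 farthest to the right at 1.65 and GRB2 farthest to the left at -1.29.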

How the data were processed

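Gene expression was read from MOLM-13 cells as nanopore cDNA, with 4 libraries per group. The authors aligned reads to hg38 with minimap2, kept mapping qualities above 50 and obtained counts per annotated transcript with StringTie. These deposited counts were used as they are. The authors' second table, named for TPM, holds CPM: it equals the counts per 1000000 within 4.998e-07, at a tolerance of 1e-06, and was used in 1 alternative. Counts were added up per gene by GENCODE version 44 (252562 of 254070 transcripts matched, and the 1508 others held 0.0876% to 0.115% of a library). Tool versions of the authors are not given in the sources used here.

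Genes were tested with edgeR 4.0.16 (TMM, default low-count filter, quasi-likelihood test, 7597 genes) and isoforms with its diffSpliceDGE (5464 isoforms), with Benjamini-Hochberg adjustment over all features tested. A gene was called at an adjusted p under 0.05, and an isoform when its mean share also changed by at least 10 percentage points. The tests were tried on simulated counts. Exact permutation tests of 4 against 4 are two-sided, computed for 7 members, and not adjusted. Ratio intervals are exact binomial ones on summed counts and, like the floor of 3 counts, cover counting error only. Annotated transcripts were aligned with minimap2 2.31. Alternatives used DESeq2 1.42.0 and limma 3.58.1 (R 4.3.3), and tables and plots pandas 2.3.3 and matplotlib 3.10.9 (Python 3.11.15).

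The members, the pathway list, the marker lists and the tests were chosen with earlier results of these data known. Named were all members, each pathway gene called, the 3 pathway genes per group with the highest mean normalized CPM (not corrected for length, a rule of choice only), and member isoforms with a mean share of at least 10%. A gene that this rule names is not reported here. Same-numbered libraries were not paired, since the correlations of their deviations from the group means were -0.0328 to 0.00889.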

Additional observations from a re-analysis of the deposited data

Results flagged for a closer look

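Of 60 groups of 4 libraries examined among the named genes, 2 held a library far from the other 3, and chance alone flags about 1 in 20 groups. KITLG, the ligand of the receptor KIT, had 20.5 normalized CPM in shPTBP1 replicate 2 and 12.8 to 13.3 in the other shPTBP1 libraries, beside 12.7 to 16.6 in shSCR. IL6R, the interleukin-6 receptor, had 98.6 normalized CPM in shPTBP1 replicate 4 and 76.6 to 79.7 in the other shPTBP1 libraries, beside 43.3 to 78.0 in shSCR.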

How the results depend on the processing

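Of the 10 members, 4 had enough counts to test. All log2 fold changes of CSF1R, CSF3R, CSF2RB, EGR1, GRB2, IFNAR2, STAT2, STAT6 and PTPN6 kept their sign under every alternative run. DESeq2 called 150 genes lower in place of 242, 2 pathway genes lower in place of 4 (STAT2 and STAT6 were lost, adjusted p = 0.0772 and 0.234), and 0 members in place of 1, since it gave CSF1R no adjusted p. The members called were 0 also with a mean of at least 50 counts, where CSF1R is not tested, with no filter on low counts and with the replicate block. The block ended the calls of CSF1R and STAT6 (adjusted p = 0.0723 and 0.0801) and no other among the members, PTBP1 and the named pathway genes, and no library correlated best with its own number. On log2(CPM + 1), limma-trend called 1 pathway gene higher in place of 2 (PTPN6 was lost, adjusted p = 0.0535). STAT6 also lost its call with no filter on low counts (0.105) and in thinned libraries (0.0590). Limma's diffSplice called 154 isoforms and a minimum share change of 0.2 left 28, in place of 61. Among coding transcripts only, the share of CSF3R-203 changed by 0.287 points in place of -7.73. Limma-voom gave CSF2RB -1.17 (adjusted p = 0.388).

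Without single libraries, 107 to 190 genes were called lower and 77 to 168 higher, 0 to 1 members lower, 0 to 0 members higher, 1 to 3 pathway genes lower, 1 to 2 higher, and 39 to 55 isoforms, 0 of them of members. Counts of lower genes fell by over 1.5 times without shPTBP1 replicates 2, 3 and 4 (125, 107 and 136) or shSCR replicates 2 and 4 (151 and 116), those of higher genes without shPTBP1 replicates 2, 3 and 4 (85, 77 and 100) or shSCR replicate 4 (103), and those of isoforms without shPTBP1 replicate 4 (39). The signs of genes near 0 turned: KITLG was -0.0186 by limma-trend, -0.0425 in thinned libraries and -0.151 to 0.108 without single libraries, and MYC was -0.0310 by limma-trend, -0.0108 with a mean of at least 50 counts and -0.0350 to 0.0434. PIM1 ran from -0.0436 to 0.632, IL10RB from -0.139 to 0.0440, JAK1 from -0.696 to 0.251 and SYK from -0.133 to 0.557. CCND3 passed the threshold with no filter on low counts (adjusted p = 0.0107), with a mean of at least 50 counts (0.0444), and without shSCR replicate 1 or 3 (0.0422 and 0.0356), and IL6R without shSCR replicate 1 (0.0446). The causes were not tested. The planned test of the STAT5B share of the STAT5 counts was not run, because STAT5A had no count and 4 libraries had no count of either gene.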

Other observations

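Among the ligands, CSF2, CSF3, IL3 and IL6, the genes of GM-CSF, G-CSF, interleukin-3 and interleukin-6, were listed at 0 in all 8 libraries. FLT3LG, the gene of FLT3 ligand, had 7, 6, 7 and 7 counts after PTBP1 KD and 7, 2, 5 and 4 in shSCR, or 4.37 ± 0.281 and 2.87 ± 1.28 normalized CPM (SD, n = 4), with groups that overlapped, since shSCR replicate 1 lay above shPTBP1 replicate 2. OSM, the gene of oncostatin M, had 6, 4, 3 and 4 counts against 0, 3, 0 and 4. Both had too few counts for the test across genes. Of the receptors, KIT had 1, 3, 2 and 4 counts after PTBP1 KD and 2, 4, 2 and 4 in shSCR, while IL5RA and LIFR were listed at 0 in all libraries. Of the kinases, JAK3 was listed at 0 in all libraries and JAK2 had 3, 7, 4 and 12 counts against 7, 8, 4 and 6. CISH, the feedback inhibitor gene named beside SOCS2 above, had 11, 16, 18 and 14 counts after PTBP1 KD and 10, 11, 9 and 13 in shSCR. It was not called (log2 fold change 0.47, SE 0.28, edgeR adjusted p = 0.395). KIT, IL5RA, LIFR, JAK2, JAK3 and CISH were chosen for this paragraph after their values were seen.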
